A study of Mus musculus with 24 samples.

Results

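Adaptor complexes and Golgi transport coats were followed here across 4 groups of mice, as 63 genes of the 15456 in the table. The members were taken by gene name, with earlier results of these data known. They are the protein-coding genes whose symbols mark the subunits of the adaptor protein complexes AP-1 to AP-4, clathrin, the coats COPI and COPII, the transport protein particle (TRAPP) and the golgins, with Uso1 added. The study names Uso1 in a gene module whose expression was negatively related to R. flavefaciens in these same data. By role they were 3 clathrin chains, 7 subunits of AP-1, 5 of AP-2, 7 of AP-3, 4 of AP-4, 8 of COPI, 7 genes of COPII, 14 of TRAPP, 6 coiled golgins and 2 cofactors of palmitoyltransferases, Golga7 and Golga7b, that share the golgin symbol. All 63 passed the filter on low values, a mean of at least 10 normalized counts, as did 14974 genes of the table, and no member was at 0 in any mouse.

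Poly(A) RNA from the prefrontal cortex of 24 BALB/c OlaHsd mice at postnatal week 11 was sequenced. There were 6 mice per group, with 1 library per mouse. The groups were a control, which the methods describe as given PBS, a duloxetine group, an R. flavefaciens group and a group given both. Duloxetine, a drug against depression that keeps serotonin and noradrenaline from being taken back up by neurons, was injected daily, and Ruminococcus flavefaciens, an anaerobic gut bacterium, was given alive by gavage. No genotype beyond the strain is given, and the groups were compared to ask whether the bacterium alters the response of this brain region to the drug. The tissue was checked against its markers, and 9 of 9 genes of excitatory neurons were measured, with a summed level of 106572 ± 3782 normalized counts (SD, n = 6) in the controls and Camk2a as the most abundant. Reads recovered from the table ranged from 12811413 to 15607343 per mouse. The median was 13591497 for controls, 14536037 for duloxetine, 13943370 for R. flavefaciens and 14621656 for both, so that depth differed along with treatment.

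Proteins and membrane move between organelles in small vesicles, and a coat of protein shapes each vesicle and picks its cargo. COPII coats carry new proteins out of the endoplasmic reticulum (ER), COPI coats carry material back through the Golgi and to the ER, and clathrin with its adaptors serves the trans-Golgi network, endosomes and the plasma membrane. TRAPP and the golgins catch arriving vesicles at the Golgi. In neurons AP-2 with clathrin retrieves synaptic vesicle membrane after release, and a neuronal form of AP-3 helps to form synaptic vesicles from endosomes.

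Levels of different members are compared here only per kilobase of transcript (the median length over the transcripts of a gene). On this scale the members had a median of 330 normalized counts, against 107 for all genes tested. Of the members, 52 lay above that median, 12 were in the top 10 percent of tested genes and 1 in the bottom 10 percent. AP-2 led, with Ap2m1, its cargo-binding medium subunit, at 3586 normalized counts per kilobase. Taking only the most abundant member of each other complex, Clta, a clathrin light chain, came next with 2014. Then came Ap1s1, the small subunit of AP-1, with 2002, Copg1, a subunit of the COPI inner coat, with 1462, and Trappc6b, a subunit of the TRAPP core, with 1088. Ap3s1, the small subunit of AP-3, stood at 700, Golga7b, a partner of protein palmitoyltransferases, at 607, Sec23a, a COPII subunit that activates the GTPase Sar1, at 564, and Ap4s1, the small subunit of AP-4, at 397. Uso1, a tether between ER-derived vesicles and the Golgi, stood at 358. AP-4 sorts cargo such as the autophagy protein ATG9A at the trans-Golgi network. It also held the lowest level of all members, Ap4b1 with 6.95, and its medium subunit Ap4m1 stood at 40.7. Ap4b1 shares 2396 of its 2907 exon bases with Gm43064 on the same strand. Reads there cannot be told apart, so the level of Ap4b1 is uncertain.

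**Figure D1:**
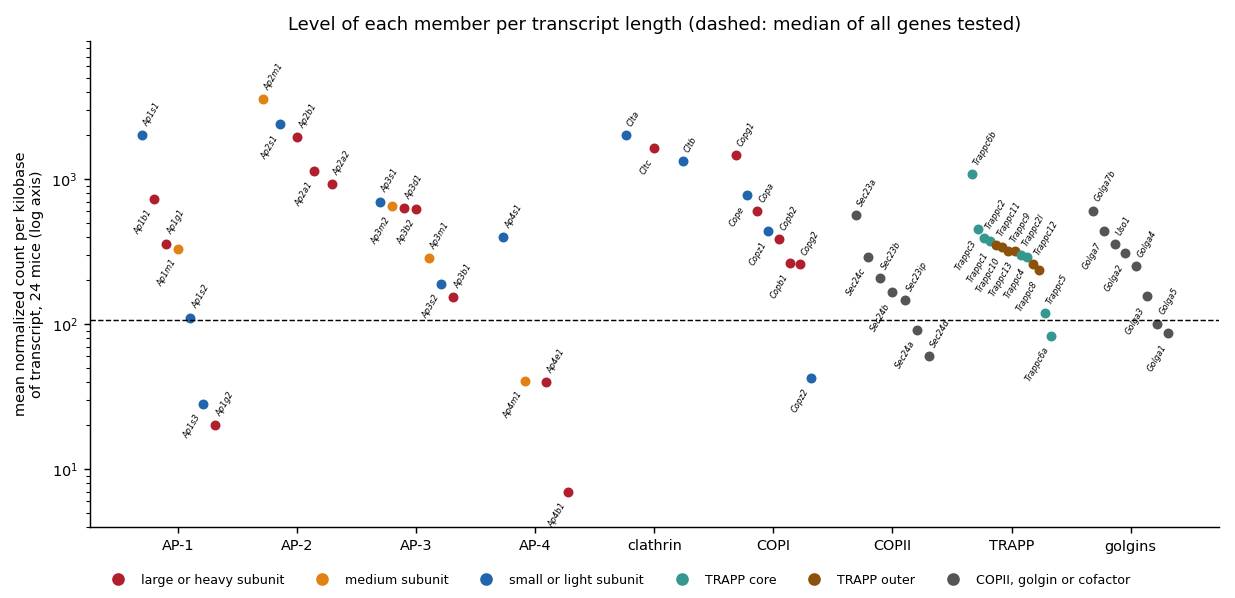
Mean level of each of the 63 members over 24 mice, in normalized counts per kilobase of transcript on a vertical log axis, grouped by complex and coloured by kind of subunit; the dashed line is the median of all genes tested, 107. All subunits of AP-2 and all clathrin chains lie above the line, and Ap4b1, at 6.95, is the lowest point.

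Where subunits exist in paired forms, the data showed which form dominated this cortex. For AP-3 the neuronal forms were the more abundant, with Ap3b2 at 4.08 times the level per kilobase of Ap3b1 and Ap3m2 at 2.28 times that of Ap3m1. Ap1g1 stood at 17.9 times Ap1g2 and Ap1s1 at 18.0 times Ap1s2. In the coats Copg1 stood at 5.59 times Copg2, Copz1 at 10.3 times Copz2, Sec23a at 2.70 times Sec23b and Sec24c at 4.82 times Sec24d, while the alpha subunits Ap2a1 and Ap2a2 were nearer each other, at 1.23 times. The log2 ratio of Ap3b2 to Ap3b1, which does not depend on how a mouse was scaled, was 1.84 ± 0.0757 (SD, n = 6) in the controls, 1.81 ± 0.0721 with duloxetine, 1.86 ± 0.113 with R. flavefaciens and 1.78 ± 0.0261 with both. Ap3m1 shares 2090 of its 6732 exon bases with Vcl and Copg2 shares 912 of 3961 with Mest, both on the opposite strand, and without stated strand use their reads cannot be told apart. The members also varied less between mice of 1 group than all genes tested did. They were more abundant as well, and no comparison at a matched level was made. Their within-group SD on the log2 scale had a median of 0.0887, against 0.154 for all genes tested, and by group it was 0.0634 for controls, 0.0792 for duloxetine, 0.125 for R. flavefaciens and 0.0893 for both, where all genes had 0.116, 0.128, 0.179 and 0.152.

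Promoters of the members were searched because coat and tether genes are known to share stress-response elements. RefSeq windows of 300 bases on GRCm38.p6, 250 before and 50 after the start, were found for 54 of the 63 members. The 11 strings of letters searched, on both strands, were chosen with results known. The Golgi stress element ACGTGGC was in the windows of 9 of 54 members (16.7 percent), against 2.58 percent of all 32851 windows and 4.41 percent of the tested genes. It was in 1 of 23 adaptor and clathrin genes and in 8 of 31 coat and tether genes. The unfolded protein response element TGACGTGG was in 4 of 54 (7.41 percent), against 0.676 percent of all windows and 1.06 percent of the tested genes, and the strings can overlap as TGACGTGGC. Windows of some holders are shown 5′ to 3′ on the gene's strand, with the match in capitals, where GCCACGT and CCACGTCA are the same elements read from the other strand. They lie at chrX:163908883-163908929 (plus strand) for Ap1s2, chr6:87887923-87887949 (plus) for Copg1, chr14:20674226-20674272 (plus) for Sec24c, chr3:123267452-123267495 (plus) for Sec24d, chrX:166440700-166440746 (plus) for Trappc2, chr5:92137861-92137907 (plus) for Uso1, chr7:114254681-114254728 (minus) for Copb1 and chr9:98563704-98563731 (plus) for Copb2.
Ap1s2: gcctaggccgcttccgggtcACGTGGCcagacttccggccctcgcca
Copg1: atagtgcagtgctcagggcgACGTGGC
Sec24c: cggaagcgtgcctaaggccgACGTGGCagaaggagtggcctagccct
Sec24d: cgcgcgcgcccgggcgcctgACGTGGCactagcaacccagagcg
Trappc2: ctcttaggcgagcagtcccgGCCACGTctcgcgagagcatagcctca
Uso1: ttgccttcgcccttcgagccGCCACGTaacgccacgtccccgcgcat
Copb1: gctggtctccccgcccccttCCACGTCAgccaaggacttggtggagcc
Copb2: agagtcgcttcccggaagttCCACGTCA

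The window of Uso1 held the Golgi stress element at 2 places, of which only the upstream match is in capitals above. Golga3 and Copz2 also held the element. A match is a description of letters, not a bound site or a cause of any level. The 9 members with ACGTGGC had a median log2 difference from control of -0.063 with R. flavefaciens and -0.092 with both treatments, the 45 without it -0.036 and -0.043, and 0 of the 9 were differentially expressed genes (DEGs) in either comparison. DEGs are genes with an adjusted p-value under 0.05 from limma, fitted on log2(normalized count + 1) over all 14974 genes. For the other strings the share of members is set beside that of the tested genes and of all windows. The site of the factor NRF1 was in 12 members (22.2 percent, against 10.9 and 4.6 percent), CCGGAAGT, an ETS site, in 10 (18.5 percent, against 8.41 and 3.89 percent) and the core of the cAMP response element, TGACG, in 25 (46.3 percent, against 34.6 and 20.8 percent). The cAMP response element TGACGTCA was in 3 (5.56 percent, against 3.61 and 1.79 percent) and the E-box CACGTG in 7 (13 percent, against 11.5 and 7.15 percent), near the share of tested genes. The CCAAT box was in 35.2 percent, against 42.8 percent of tested genes, and CCACG, the second part of the ER stress element, in 46.3 percent, against 51.5 percent. The whole ER stress element and the YY1 site were in 0 members, against 0.15 and 1.65 percent of tested genes.

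Whether adding duloxetine to the bacterium altered these genes was asked by comparing the combined with the R. flavefaciens group. Of the 14974 genes 2.23 percent were DEGs, and of the 63 members 2 were, Ap1b1 lower and Ap4m1 higher. The DEGs divided into 1.07 percent higher and 1.16 percent lower genes. DESeq2 and edgeR on recovered reads called the same 2 members, among 4.17 and 2.18 percent of all genes. In bulk tissue, fewer cells of a type and less RNA per cell cannot be told apart.

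Ap1b1 encodes the beta subunit of AP-1, a large subunit that binds clathrin on vesicles of the trans-Golgi network and endosomes. Its normalized counts had a lowest value of 2854, a median of 2945 and a highest of 3084 in the controls, and 2770, 2949 and 3030 with duloxetine. In the R. flavefaciens group they were 2838, 2963 and 3174, and with both treatments 2586, 2680 and 2864. The combined group was the low one, and 5 of its 6 mice lay below the lowest R. flavefaciens mouse. With both treatments Ap1b1 fell by 0.16 on the log2 scale from R. flavefaciens alone (standard error 0.0383, adjusted p = 0.0313 from limma; exact permutation test over mice, two-sided, p = 0.00433, n = 6 per group). The call was kept in 19 of 24 fits that each left out 1 mouse, and was lost without the R. flavefaciens mouse 7_2 (adjusted p = 0.0683) or 9_3 (0.0589) and without the combined mouse 11_3 (0.0706), 11_4 (0.0598) or 12_2 (0.0577). It was also lost when only these groups were fitted (limma adjusted p = 0.182) and under quantile (0.0604) or 75th percentile scaling (0.0605). The same combined mice had a difference of -0.13 from the controls (adjusted p = 0.117 from limma) and of -0.11 from the duloxetine group (adjusted p = 0.816).

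Ap4m1 encodes the medium subunit of AP-4, the part that reads sorting signals in cargo tails. Its normalized counts had a lowest value of 132, a median of 143 and a highest of 154 in the controls, 122, 140 and 158 with duloxetine, 112, 124 and 151 with R. flavefaciens, and 141, 154 and 183 with both. The R. flavefaciens mice were the low and the combined mice the high end of the range, with 4 of 6 combined mice above the highest R. flavefaciens mouse. Ap4m1 rose by 0.30 (standard error 0.0812, adjusted p = 0.0483 from limma; exact permutation test, two-sided, p = 0.00866, n = 6 per group), and all 6 combined mice lay above the R. flavefaciens mean. The call was kept in 7 of 24 fits that left out 1 mouse, whose adjusted p-values ranged from 0.0254 to 0.109 (limma), and lost among others in the fit of only these groups (0.193). Ap4m1 shares 903 of its 3479 exon bases with Taf6 and 321 with Mcm7, both on the opposite strand, and the counting is not stated to use strand, so reads of these genes cannot be told apart there. Taf6 had a difference of 0.14 (standard error 0.0586, adjusted p = 0.198 from limma) and Mcm7 one of 0.040 (adjusted p = 0.849) in the same comparison. The other AP-4 subunits gave no DEG, and the summed level of AP-4 was 692 ± 33.4 (SD, n = 6) with R. flavefaciens and 722 ± 19.3 (SD, n = 6) with both.

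With the DEGs counted in, an unadjusted p-value under 0.05 in this comparison was met by 1 higher and 9 lower members, against 9.76 percent higher and 9.90 percent lower among all genes. Rescaling to the 75th percentile gave 4 higher and 6 lower members (all genes 12.5 and 6.64 percent), and quantile normalization 2 and 8 (all genes 9.63 and 9.41 percent). Among the 9, beside Ap1b1, were Ap1s1 (difference -0.15, adjusted p = 0.101 from limma), Clta (-0.13, adjusted p = 0.120), Cltb (-0.12, adjusted p = 0.137) and Ap2m1 (-0.12, adjusted p = 0.148). Ap2m1 had a lowest, median and highest of 8559, 9185 and 10214 normalized counts with R. flavefaciens and of 7788, 8629 and 9128 with both, ranges that overlap.

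**Figure D2:**
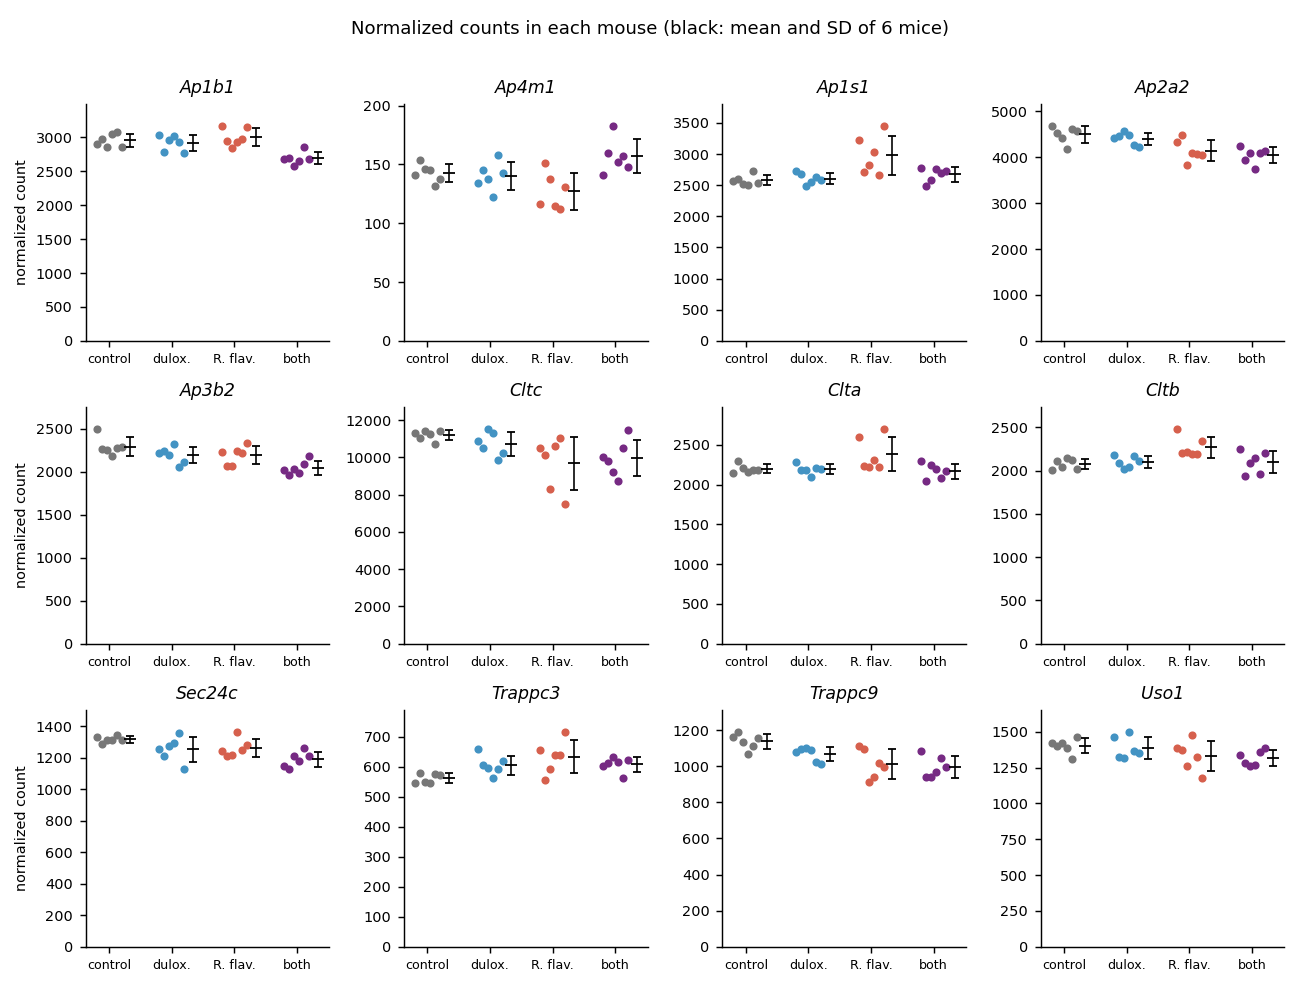
Normalized counts of 12 members in each mouse, with every vertical axis starting at 0; black marks are the group mean and SD, n = 6 mice per group. The 6 combined mice of Ap1b1 lie low, between 2586 and 2864, those of Ap4m1 between 141 and 183, and 2 R. flavefaciens mice stand low for Cltc, at 7483 and 8285.

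R. flavefaciens alone was compared with control to ask what the bacterium did without the drug. With limma 0 members were DEGs, and 0.0267 percent of all genes were. DESeq2 on recovered reads called 4 members, Ap1s1, Cltb, Trappc3 and Trappc9, where it called 3.26 percent of all genes, and edgeR called 0 members and 0.0267 percent of all genes. At an unadjusted p-value under 0.05 there were 10 higher and 13 lower members, against 8.86 percent and 10.8 percent of all genes. The median difference was -0.042 over the members and 0.003 over all genes.

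The sign of these differences ran with the kind of subunit. In the core of TRAPP, the part that activates the Golgi GTPase Rab1, 8 of 8 genes had a positive difference, 5 of them at an unadjusted p-value under 0.05, with a median of 0.14. Of these, Trappc4 shares 462 of its 1455 exon bases with Rps25 (mean 1394 normalized counts) and Trappc2 shares 131 of 1684 with Ofd1, both on the opposite strand, so their reads cannot be told apart. Of the 6 outer subunits of TRAPP 5 had a negative difference, 3 at that p-value, with a median of -0.10. The 7 small subunits of the adaptors were all positive (median 0.13, 3 at that p-value), while 8 of their 11 large subunits were negative (median -0.11, 6 at that p-value). In COPI the 5 large subunits were all negative and the 3 small ones all positive, and in COPII all 7 genes were negative (median -0.10, 1 at that p-value). Of the 6 coiled golgins 5 were negative (median -0.060).

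These kinds of subunit also differ in the length of their transcripts. The median length was 1269 bases for the TRAPP core and 3266 for its outer subunits, and 1353 for the small and 3486 for the large adaptor subunits. All 13 members with transcripts under 1500 bases had a positive difference (median 0.13), and of the 33 with 3000 bases or more 29 had a negative one (median -0.083). The same order was present in all genes tested, where 2167 of 2786 short genes were positive and 4474 of 6568 long ones negative, with medians of 0.11 and -0.060, and 0.029 over 5604 intermediate ones. Spearman's rho between the difference and transcript length was -0.71 across members and -0.45 across all genes, as a description across genes, which share libraries. In single mice, rho between a gene's deviation from its mean over all mice and its transcript length ran from 0.11 to 0.24 in the controls, from -0.084 to 0.23 with duloxetine and from -0.17 to 0.10 with both. The R. flavefaciens mice were uneven, with -0.53 in 9_3, -0.28 in 7_2 and -0.22 in 8_4, but 0.055 in 8_3, 0.065 in 9_1 and 0.11 in 9_2. After the trend on length was taken off every mouse, 3 higher and 6 lower members had an unadjusted p-value under 0.05 (all genes 5.56 and 7.09 percent), and 7 of 8 TRAPP core genes were positive, none of them at that p-value. The small adaptor subunits then had 5 of 7 positive (median 0.053) and the small COPI subunits 1 of 3 (median -0.027). Without mouse 9_3 there were 4 higher and 7 lower members (all genes 5.38 and 6.13 percent), and all 8 TRAPP core genes, 6 of 7 small adaptor subunits and 2 of 3 small COPI subunits were positive, with medians of 0.089, 0.084 and 0.029. What the length relation comes from was not tested.

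**Figure D3:**
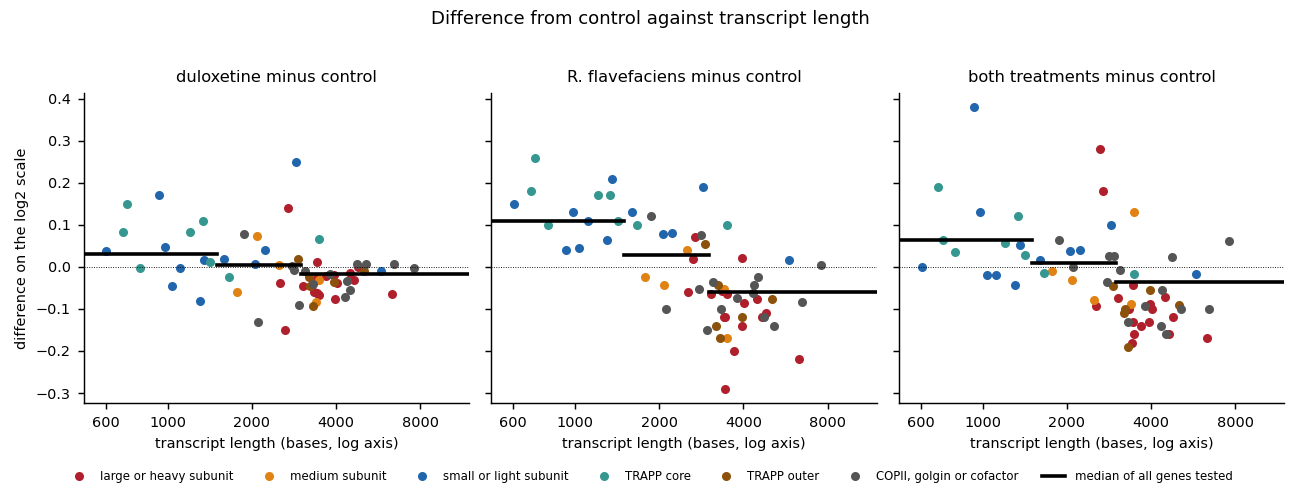
Log2 difference from control of each member against the length of its transcript in bases, on a log axis, for duloxetine, R. flavefaciens and both treatments; black lines are medians of all genes tested in 3 length classes. With R. flavefaciens all 13 short members sit above 0 and 29 of the 33 long ones below it, and the medians of all genes run from 0.11 to -0.060.

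Clathrin showed the contrast of sign within 1 complex, whose transcripts also differ in length, at 6341 bases for Cltc, 1595 for Cltb and 1110 for Clta. Cltc, the heavy chain that forms the legs of the clathrin lattice, had a lowest, median and highest of 10734, 11282 and 11411 normalized counts in the controls and 7483, 10309 and 11038 with R. flavefaciens. The R. flavefaciens mice 9_3 and 8_4 stood low, at 7483 and 8285, the other 4 lay at 10136 or above, and the ranges overlapped. The difference was -0.22 (standard error 0.0761, adjusted p = 0.113 from limma; exact permutation test, two-sided, p = 0.00433, n = 6 per group). The light chains, which regulate the lattice, had differences of the opposite sign. Cltb had 2006, 2077 and 2141 in the controls and 2188, 2211 and 2485 with R. flavefaciens, and every treated mouse lay above every control. Cltb was the only member with groups that did not overlap here, where 0.788 percent of all genes did not overlap on the higher side, and its difference was 0.13 (standard error 0.0424, adjusted p = 0.105 from limma; exact permutation test, two-sided, p = 0.00216, n = 6 per group, the smallest p that this design allows). Clta had 2142, 2182 and 2303 in the controls and 2221, 2274 and 2703 with R. flavefaciens, with a difference of 0.11 (adjusted p = 0.178 from limma), and its highest mice, 9_3 at 2703 and 7_2 at 2604, stood apart from the other 4, which lay at 2313 or below. Over 10 alternative fits, among them that with the trend on length taken off, the difference ran from -0.23 to -0.12 for Cltc and from 0.063 to 0.16 for Cltb. The part of transcript length in this contrast was not tested.

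Of the adaptors, Ap1s1 had the smallest p-value of all members in this comparison. It had 2506, 2553 and 2726 normalized counts (lowest, median and highest) in the controls and 2657, 2933 and 3455 with R. flavefaciens, a difference of 0.21 (standard error 0.0513, adjusted p = 0.0727 from limma; exact permutation test, two-sided, p = 0.00649, n = 6 per group). The treated mice reached higher, but the ranges overlapped. All 3 large subunits of AP-2 had a difference of -0.12. Ap2a2, an alpha subunit that docks AP-2 on membrane lipids, had 4177, 4551 and 4689 in the controls and 3841, 4079 and 4491 with R. flavefaciens (adjusted p = 0.124 from limma). Trappc3, the palmitoylated subunit of the TRAPP core, had 545, 561 and 580 in the controls and 556, 639 and 717 with R. flavefaciens, a difference of 0.17 (standard error 0.0518, adjusted p = 0.0930 from limma). Trappc9, an outer subunit of the TRAPPII form, whose human counterpart is mutated in an intellectual disability with small head size, had 1068, 1147 and 1192 in the controls and 913, 1008 and 1115 with R. flavefaciens. Its difference was -0.17 (standard error 0.0496, adjusted p = 0.0818 from limma), with overlapping ranges. Uso1 had 1312, 1410 and 1467 in the controls and 1176, 1348 and 1478 with R. flavefaciens, a difference of -0.075 (standard error 0.0490, adjusted p = 0.410 from limma), which was within the spread between mice.

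Both treatments together were compared with the same control mice, so that this comparison and the one before share their controls. By limma 0 members were DEGs, and 0.10 percent of all genes were. DESeq2 called 5 members, Ap1b1, Ap2a1, Ap2a2, Ap3b2 and Trappc9, and 1.45 percent of all genes, and edgeR called 0 members and 0.114 percent. At an unadjusted p-value under 0.05 there were 4 higher and 14 lower members, against 8.08 percent higher and 8.73 percent lower among all genes. Rescaling to the 75th percentile gave 5 higher and 8 lower members (all genes 11.7 and 4.63 percent), and quantile normalization 4 and 6 (all genes 6.87 and 6.60 percent). The median difference was -0.036 over the members and 0.001 over all genes, and it came to -0.002 over the members after 75th percentile scaling.

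AP-2, AP-3 and the outer TRAPP subunits are given first. All 5 AP-2 genes had a negative difference (median -0.13), but that of the small subunit Ap2s1 was only -0.001 and that of Ap2m1 -0.078. The 3 large subunits were lower at an unadjusted p-value under 0.05. The summed level of AP-2 was 26107 ± 841 normalized counts (SD, n = 6) in the controls, 25770 ± 905 with duloxetine, 25290 ± 1265 with R. flavefaciens and 24092 ± 1465 with both. At that p-value 4 of the 5 were lower with the trend on length taken off, and 2 of 5 after 75th percentile (median -0.10) and after quantile scaling (median -0.064), where 1 gene was positive under each scaling. Ap2a2 had 3746, 4096 and 4242 normalized counts (lowest, median and highest) with both treatments, a difference from control of -0.16 (standard error 0.0417, adjusted p = 0.105 from limma). Ap3b2, the beta subunit of the neuronal AP-3, had 2182, 2269 and 2500 in the controls and 1960, 2023 and 2185 with both. Its groups all but separated, with a difference of -0.16 (standard error 0.0420, adjusted p = 0.0871 from limma; exact permutation test, two-sided, p = 0.00433, n = 6 per group). Without the R. flavefaciens mouse 9_3, which enters through the shared spread, Ap3b2 was called, as were 0.821 percent of all genes. Ap3d1, the delta subunit of every AP-3, had a difference of -0.12 (adjusted p = 0.192 from limma). Trappc9 stood at 940, 984 and 1086 with both treatments, a difference of -0.19 (standard error 0.0496, adjusted p = 0.0881 from limma), and all 6 outer TRAPP subunits were negative.

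The coats and the shorter members gave the rest. Sec24c, a cargo adaptor of COPII, had 1286, 1314 and 1344 normalized counts in the controls and 1129, 1196 and 1265 with both, and every treated mouse lay below every control. Its difference was -0.14 (standard error 0.0426, adjusted p = 0.122 from limma; exact permutation test, two-sided, p = 0.00216, n = 6 per group). Groups that did not overlap on the lower side were found for 2 members, Sec24c and Trappc10, the second named after its values were seen (difference -0.091, adjusted p = 0.283 from limma), and for 1.16 percent of all genes. Copg1 had a difference of -0.094 (adjusted p = 0.239 from limma), Sec23a one of -0.13 (adjusted p = 0.316), Cltc one of -0.17 (adjusted p = 0.253) and Uso1 one of -0.092 (adjusted p = 0.337). Sec23ip, a partner of Sec23 named after its values were seen, had -0.16 (adjusted p = 0.155 from limma). On the positive side were Copz2, a COPI subunit of low level, with 0.38 (standard error 0.178, adjusted p = 0.283 from limma), Trappc1, of the TRAPP core, with 0.19 (adjusted p = 0.188), Ap3s1 with 0.13 (adjusted p = 0.265) and Trappc3 with 0.12 (adjusted p = 0.261). Of the 33 members with transcripts of 3000 bases or more 30 had a negative difference, with a median of -0.10, against 3948 of 6568 and -0.035 for all long genes, and after the trend on length was taken off 1 higher and 13 lower members had an unadjusted p-value under 0.05 (all genes 7.49 and 9.12 percent).

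**Figure D4:**
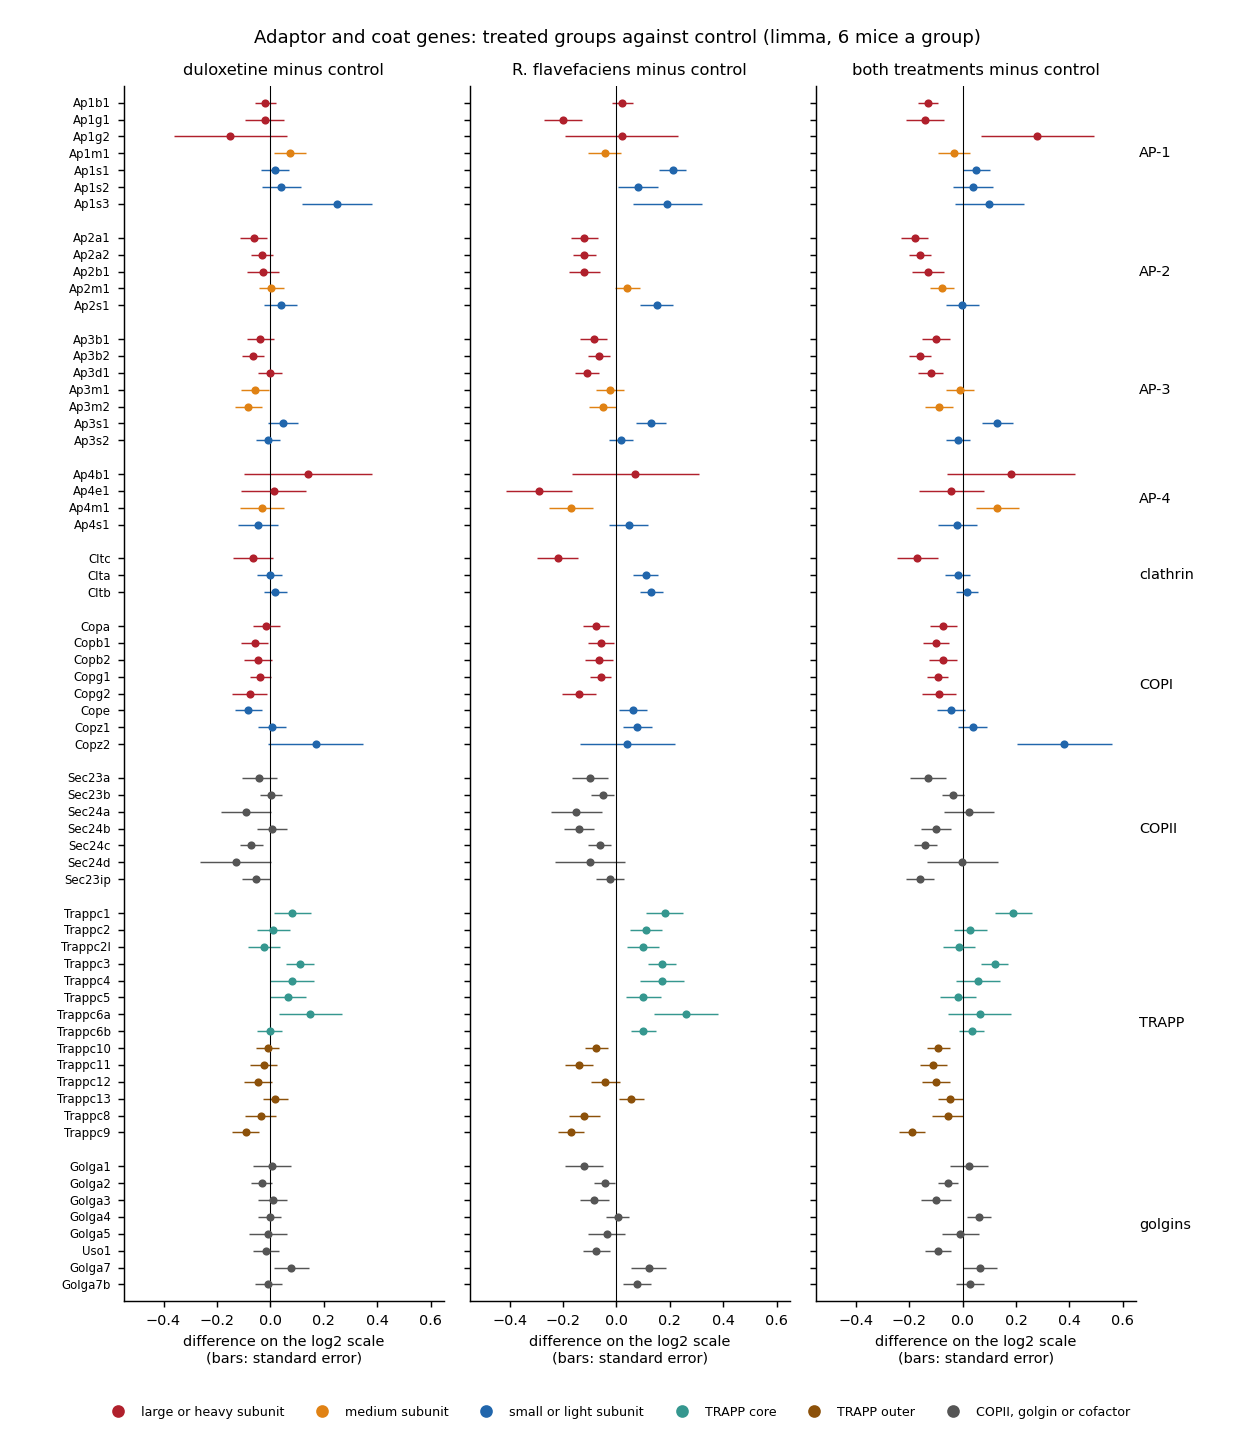
Log2 difference from control of all 63 members for duloxetine, R. flavefaciens and both treatments, with standard errors from limma as bars, n = 6 mice per group, and the kind of subunit in colour. The medians of the panels are -0.010, -0.042 and -0.036, and the 3 panels share the 6 control mice.

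Duloxetine alone was set against the same control mice. By limma 0 members were DEGs, as were 0 percent of all genes, while DESeq2 called 0.00668 percent of all genes and edgeR 0 percent, none of them members. At an unadjusted p-value under 0.05 there were 1 higher and 0 lower members, against 2.20 and 1.63 percent of all genes. The higher one was Trappc3, with 564, 601 and 658 normalized counts (lowest, median and highest) against 545, 561 and 580 in the controls. The ranges overlapped, and the difference was 0.11 (standard error 0.0518, adjusted p = 1.00 from limma). The next were Ap1s3, a minor small subunit of AP-1, with 0.25 and Trappc6a with 0.15 on the positive side, and Trappc9 with -0.093, Ap3m2 with -0.083 and Sec24c with -0.072 on the negative side. All had an adjusted p-value of 1.000.

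Adding the bacterium to the drug was tested by the combined against the duloxetine group, which shares the combined mice with the comparisons above. By limma 0 members and 0 percent of all genes were DEGs, DESeq2 called 0.00668 percent of all genes, none of them a member, and edgeR 0 percent. At an unadjusted p-value under 0.05 there were 1 higher and 5 lower members, against 3.02 and 2.88 percent of all genes, with 2 higher and 4 lower after 75th percentile scaling (all genes 3.81 and 2.06 percent) and 2 and 2 after quantile normalization (all genes 2.96 and 2.81 percent). The lower ones with the smallest p-values were Ap1b1 (difference -0.11, adjusted p = 0.816 from limma), Ap2a2 (-0.12) and Ap3d1 (-0.12). The higher one was Ap1g2, a rare gamma subunit of AP-1, with 0.44 (standard error 0.212, adjusted p = 0.818 from limma).

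Whether the effect of 1 treatment depended on the other was tested by the interaction term, which gave 0 DEGs among members and 0 percent of all genes by limma, DESeq2 and edgeR alike. At an unadjusted p-value under 0.05 it gave 1 higher and 6 lower members, against 3.86 and 3.67 percent of all genes. The smallest p-values belonged to Ap4m1 (0.33, standard error 0.115, unadjusted p = 0.00757, adjusted p = 0.639 from limma) and Ap1b1 (-0.14, standard error 0.0542, unadjusted p = 0.0178, adjusted p = 0.639). The effect of duloxetine on Ap1b1 and Ap4m1 with the bacterium was therefore not shown to differ from that without it. With the bacterium averaged over the drug, limma called 0 members and 0.0267 percent of all genes, with 6 higher and 15 lower members at an unadjusted p-value under 0.05 (all genes 7.68 and 10.4 percent), while DESeq2 called 6 members and 2.95 percent of all genes and edgeR 0 members and 0.0267 percent. With the drug averaged over the bacterium it called 0 members and 1.03 percent of all genes, with 1 higher and 5 lower members at that p-value (all genes 7.44 and 7.49 percent), while DESeq2 called 1 member, Ap1b1, and 2.14 percent of all genes and edgeR 0 members and 0.935 percent.

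Genes that work with these coats but are not among the members were tested in the same fit. Of 129 partner genes tested 0 were called by limma or edgeR between R. flavefaciens and control and 3 by DESeq2 (Aak1, Dnm3 and Synj1). By limma 9 were higher and 24 lower at an unadjusted p-value under 0.05, where 8.86 percent of all genes were higher and 10.8 percent lower. Of 36 clathrin accessory genes 1 was higher and 8 lower at that p-value, of 25 Golgi tethers 0 and 7, of 6 genes of AP-5, a late-endosomal adaptor, 0 and 3, of 23 COPI and Arf genes 6 and 3, of 17 COPII and ER exit genes 1 and 2, and of 22 ER-Golgi SNAREs, which drive membrane fusion, 1 and 1. In each list the lowest p-value was that of 1 gene: Dnm3, a dynamin that cuts clathrin vesicles free (difference -0.32, adjusted p = 0.0727 from limma), Cog5, a Golgi tether (-0.23, adjusted p = 0.103), Spg11, an AP-5 partner (-0.20, adjusted p = 0.107), Tmed9, a cargo receptor of the early pathway (0.14, adjusted p = 0.109), Sec16a, which organizes ER exit sites (-0.18, adjusted p = 0.143), and Vti1b, a SNARE (0.12, adjusted p = 0.157). In all comparisons the only partner called by limma was Bicd2, which links Golgi and vesicles to dynein, with a rise of 0.22 in the combined over the R. flavefaciens group (standard error 0.0560, adjusted p = 0.0404 from limma), where 2.23 percent of all genes were called. It was also called with the drug averaged over the bacterium, at 0.16 (standard error 0.0396, adjusted p = 0.0434 from limma), where 1.03 percent of all genes were. EdgeR called Bicd2 alone, in these same comparisons. DESeq2, with its shares of all genes given above, called 4 partners in the combined against the R. flavefaciens group (Bicd2, Cog2, Mcfd2 and Sh3gl1). It called 7 with the bacterium averaged over the drug, 2 with the drug averaged over the bacterium (Bicd2 and Sh3gl1) and 1, Gbf1, for both treatments against control.

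Markers of cell types that the tissue could hold, excitatory neurons among them, were summed in each mouse. The 9 excitatory genes summed to 106572 ± 3782 normalized counts (SD, n = 6) in the controls and 107562 ± 4456 with duloxetine. They summed to 107969 ± 6563 with R. flavefaciens and 110303 ± 6031 with both. Against control 7 of these 9 were negative with R. flavefaciens (median -0.045) and 4 with both (median 0.037). Of 67 marker genes tested, these 9 included, limma called 0 in each comparison. Between R. flavefaciens and control 18 were higher and 2 lower at an unadjusted p-value under 0.05 (all genes 8.86 and 10.8 percent), and there edgeR called 0 and DESeq2 6, namely C1qa, C1qb, Npy, Pvalb, Sst and Tac1, where DESeq2 called 3.26 percent of all genes. Between both treatments and control 21 were higher and 0 lower (all genes 8.08 and 8.73 percent), and edgeR called 0 and DESeq2 3, namely C1qa, Npy and Rgs5, where DESeq2 called 1.45 percent of all genes. DESeq2 also called 1 marker, Slc1a2, in the combined against the R. flavefaciens group (4.17 percent of all genes). With the bacterium averaged over the drug it called 5, namely C1qa, Npy, Pvalb, Sst and Tbr1 (2.95 percent of all genes). The 5 blood genes, led by Hbb-bs, summed to 349 ± 65.7 normalized counts (SD, n = 6) in the controls, 462 ± 265 with duloxetine, 598 ± 204 with R. flavefaciens and 633 ± 351 with both, and all 5 were positive against control in each treated group. The 8 microglia genes, led by Csf1r, summed to 4371 ± 258 in the controls, 4853 ± 440, 4959 ± 394 and 5106 ± 676 in the same order, and 8 of 8 were positive with R. flavefaciens and with both. The 8 astrocyte genes, led by Slc1a2, summed to 69176 ± 4491, 71397 ± 4036, 67567 ± 6659 and 77044 ± 9257. Slc1a2 made up most of that sum, with a mean of 49745 in the controls and 46076 with R. flavefaciens. Of the 8 genes 6 were positive and 2 negative with R. flavefaciens (median 0.14), and 8 were positive with both (median 0.16). The 8 endothelial and pericyte genes, led by Rgs5, summed to 4588 ± 282, 4868 ± 547, 4866 ± 286 and 5274 ± 835. The 8 striatal genes, led by Ppp1r1b, summed to 1960 ± 294, 1817 ± 173, 2624 ± 1730 and 2134 ± 731, the 9 oligodendrocyte genes, led by Mbp, to 26105 ± 8397, 29914 ± 14692, 31756 ± 15552 and 30799 ± 17200, and the 9 genes of inhibitory neurons, led by Gad1, to 11406 ± 503, 11454 ± 425, 12389 ± 400 and 12037 ± 778. Of 6 choroid plexus genes 3 passed the filter, and these summed to 51.9 ± 10.1, 68.3 ± 42.1, 191 ± 296 and 77.9 ± 41.5. The R. flavefaciens mouse 8_4 stood apart, with 791 for choroid plexus and 6089 for striatal genes, where the other 5 mice of its group had means of 70.6 ± 34.2 and 1931 ± 372. The combined mouse 11_4 had 3570 for striatal genes, and the other 5 of its group 1847 ± 223. Mouse 8_4 was also 1 of the 2 low mice for Cltc. Without it 11 higher and 8 lower members had an unadjusted p-value under 0.05 between R. flavefaciens and control (all genes 8.15 and 9.08 percent), 0 were called by limma there, and both DEGs of the combined against the R. flavefaciens group were kept. Without the combined mouse 11_4 both of these DEGs were lost (limma adjusted p = 0.0598 for Ap1b1 and 0.0958 for Ap4m1). The part of these cells in the differences of the members was not tested.

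How members varied together within groups was described by Pearson's r over the 24 mice, after group means were taken off. The points share libraries and their scaling. Over 229 pairs within a complex the median r was 0.077, and over 1724 pairs from different complexes 0.039. AP-2 had the highest median of the complexes, 0.57 over its 10 pairs, of 0.61 after the trend on length was taken off and of 0.62 without mouse 9_3. COPII had 0.22 over 21 pairs, which came to -0.006 with the trend on length taken off. TRAPP had 0.16 over 91 pairs, which came to 0.17. Clathrin went from -0.15 to 0.49 over 3 pairs, and COPI from 0.032 to 0.20 over 28 pairs. The pairs with the highest r joined different complexes, Cltc with Trappc8 at 0.92 and Cltc with Ap1g1 at 0.90, which came to 0.79 and 0.80 with the trend on length taken off. The lowest was -0.77, between Copg1 and Golga7, a palmitoyltransferase partner. These pairs were named after their values were seen.

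**Figure D5:**
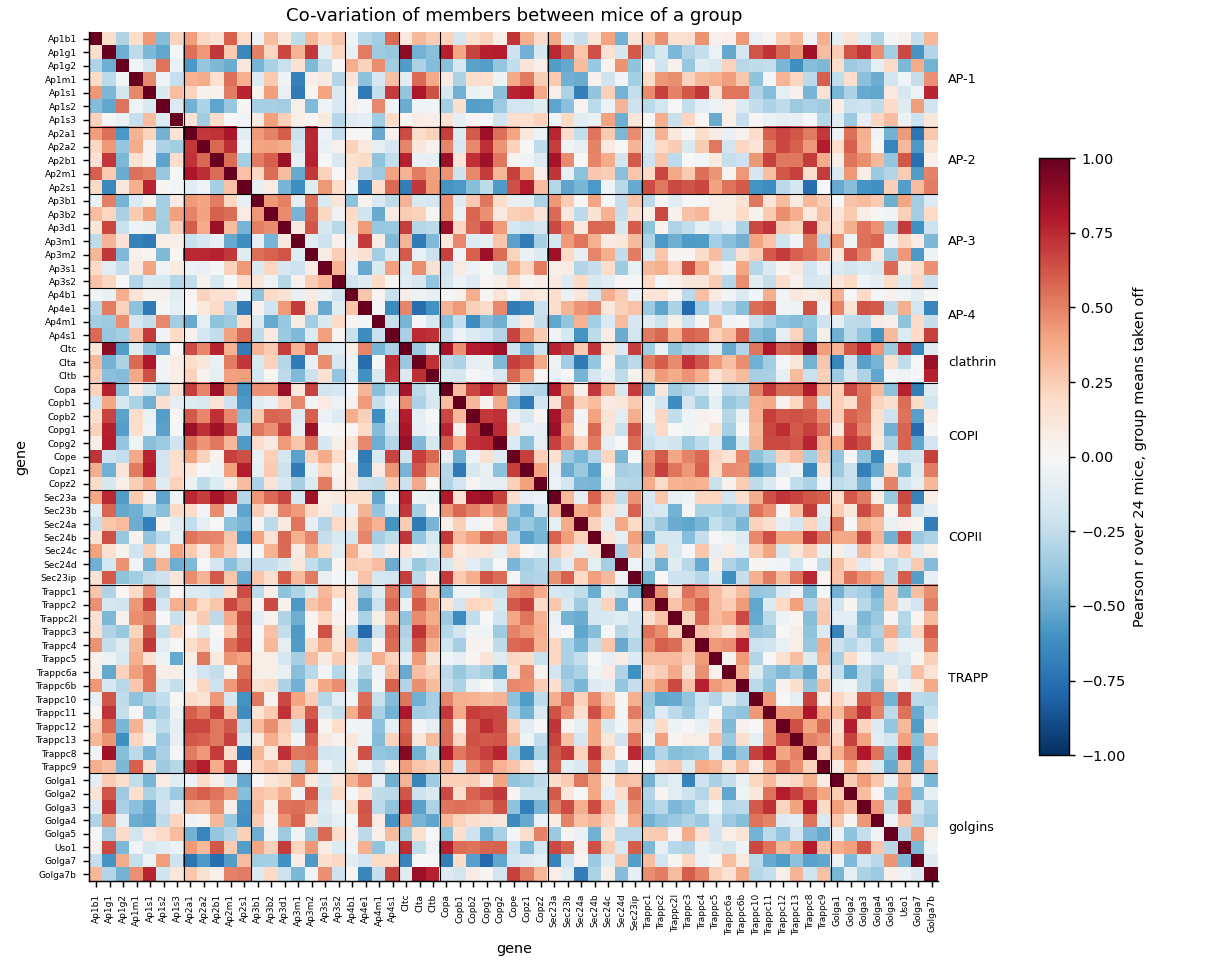
Pearson's r between every pair of members over 24 mice, from log2 values with group means taken off, ordered by complex; red is positive and blue negative. The block of AP-2 has a median r of 0.57 and is red but for pairs of Ap2s1, and the other blocks mix both signs.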

How the data were processed

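RNA of 24 mice was measured. The authors mapped reads with TopHat2 2.1.0 and Bowtie2 2.2.6 and normalized counts with DESeq2 1.18.1, per the submitters' processing notes and the methods. The deposited signal values are normalized counts, gene counts that the authors divided by 1 size factor per mouse. The counting program, its use of strand and the filter on genes are not given in the sources used here. The notes name mm9 and the methods GRCm38.p5, and positions of 14253 genes equal those of GENCODE vM21 (GRCm38), which gave transcript lengths. Of the non-zero values 99.997 percent were whole multiples of 1 step per mouse, within 0.0051, and the reads so recovered (median 14455107) gave the depth. Chi-square divided by its degrees of freedom was 2.11 to 26.8 in the 60 pairs of mice within groups, above counting error, and p-values measure the spread between mice.

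Values were tested with limma 3.58.1 (R 4.3.3) on log2(value + 1) using a trended prior. Genes whose mean reached 10 entered, with all 4 groups in 1 fit and 8 comparisons. All tests were two-sided. Benjamini-Hochberg adjustment ran over 14974 genes within each comparison, with a threshold of 0.05. Single members were also tested by exact permutation over 924 groupings of mice. Alternatives were 0.1 as pseudocount, all genes unfiltered, a mean of 50 or more, only the groups compared, quantile normalization, 75th percentile rescaling, the first label number as a random block, a loess curve on transcript length (span 0.3) subtracted from each mouse, DESeq2 1.42.0 and edgeR 4.0.16 on recovered reads, and leaving out each mouse. The tests were checked on simulated data.

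The members, gene lists, marker lists, strings and tests were chosen with earlier results of these data known. Named were Uso1, every DEG, the 3 higher and 3 lower members with the smallest p-values in each comparison with control and with duloxetine, the 2 with the smallest p-values of the interaction, the most abundant member of each complex, paired forms and the leading partner genes. Other members were named after their values were seen. Promoter windows came from RefSeq (GRCm38.p6), 9 members had no window, and 1 window is not reported here. Figures were drawn with matplotlib 3.10.9 under Python 3.11.15.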

Additional observations from a re-analysis of the deposited data

Results flagged for a closer look

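In groups of 6 mice, 4 values of named members lay apart from the rest of their group by Dixon's 95% criterion, where 100 groups were checked and chance flags about 1 in 20. Ap1g2 stood at 103 normalized counts in the R. flavefaciens mouse 8_4, with the next mouse at 55.0, and that mouse also had the highest summed striatal and choroid plexus markers, at 6089 and 791 normalized counts. Ap3b2 stood at 2500 in the control mouse 1_1, with the next at 2283. Ap3m2 stood at 1854 in the combined mouse 12_2, with the next at 2151. Trappc1 stood at 209 in the control mouse 2_2, with the next at 236.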

How the results depend on the processing

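Over 62 results and their alternatives, 0 changed sign once called, and 1911 values kept their direction and side of the threshold or stayed within the spread, while 153 moved, 28 lost and 16 gained significance. The count of members called in the combined against the R. flavefaciens group, 2 by limma, was 0 with only the groups compared (0 percent of all genes), 0 under quantile normalization (2.11 percent), 1 (Ap4m1) under 75th percentile rescaling (2.06 percent) and 1 (Ap1b1) with the trend on transcript length removed (2.41 percent), and ranged from 0 to 3 with single mice left out. The R. flavefaciens group against control, with 0, gave 1 (Ap1s1) with a random block of the first label number (1.48 percent of all genes) and 4 by DESeq2 on recovered reads (3.26 percent), and from 0 to 3 with single mice left out, the 3 (Ap1s1, Trappc3 and Trappc9) without mouse 8_3 (2.85 percent) and 2 (Ap1s1 and Cltc) without 9_2 (4.11 percent). The fitted correlation within a first label number was negative, -0.0451. Each number lies within 1 group, so the block cannot take off a difference between groups. Both treatments against control, with 0, gave 1 (Trappc9) with only the groups compared (1.31 percent of all genes), 5 by DESeq2 (1.45 percent), and from 0 to 3 with single mice left out, the 3 (Ap2a1, Ap3b2 and Sec23ip) without mouse 12_4 (1.03 percent). The bacterium averaged over the drug, with 0, gave 6 by DESeq2 (2.95 percent of all genes) and from 0 to 2 with single mice left out, the 2 (Ap2a2 and Trappc9) without mouse 8_3 (0.902 percent), and the drug averaged over the bacterium gave 1 (Ap1b1) by DESeq2 (2.14 percent). The median member difference of both treatments against control came to -0.002 under 75th percentile rescaling. The cause of these changes was not tested. No paired analysis was possible because the first label number is not shared between groups, and the second, which is, repeats within a group, and the labels do not say what either stands for. At a median of 14455107 reads per mouse, members such as Ap4b1, at 6.95 normalized counts per kilobase, are measured least precisely. The value of Ap4b1 is also limited by the 2396 of its 2907 exon bases that it shares with Gm43064 on the same strand.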
